A study of Mus musculus with 58 samples.

Results

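The libraries described here are the untreated NPC day 6 cultures of a PCGF3/5 degron line with and without a mutation in the SPOC domain of SPEN. They were chosen by title, and are 4 of the 58 libraries of the series. The measurement was ChrRNA-seq, in which RNA bound to chromatin is sequenced, so that most reads come from transcripts still being made. All 4 cultures came from female mouse ES cells of a 129S x Cast hybrid, in which the Xist promoter on the 129S X chromosome (called Dom) was replaced by a TetOn promoter. Both PCGF3 and PCGF5 carried an FKBP12 tag, which allows their degradation by dTAG-13. No dTAG-13 was given here, so tagged PCGF3/5 was left in place in both groups. Xist was switched on with doxycycline at 1 ug/mL for 6 days in N2B27 medium, in which ES cells move towards neural precursor cells (NPC). The control group, PCGF35, held 2 replicate cultures of the degron line. The mutant group, PCGF35_SPOC, held 1 culture of each of the clones F10 and F6, made by adding the SPOC mutation to that line. According to the study's supplement, clone F6 at first contained XO cells and was sub-cloned before use. For the other clone of this line, which the supplement calls by another name than the labels do, the authors attributed raised ratios in NPC samples to cells that had lost the Cast X. ES cells were grown on mouse feeder fibroblasts, which were removed by repeated pre-plating.

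X chromosome inactivation equalises the dose of X-linked genes between XX and XY mammals. Xist RNA is made from the X that will be silenced, spreads along that chromosome in cis and recruits silencing factors. SPEN binds the A-repeat of Xist, and its C-terminal SPOC domain recruits the NCoR corepressor, which holds the histone deacetylase HDAC3. PCGF3/5-PRC1 is the Polycomb complex brought in through the B- and C-repeats of Xist, and deposits ubiquitin on histone H2A. In these hybrid cells, RNA of both X chromosomes can be separated at sequence differences. The Dom share of a gene is its Dom fragments divided by its Dom plus Cast fragments, as a fraction. A share near 0.5 means equal output of both X chromosomes, and a share near 0 means that the Dom copy was silent.

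The libraries held 15.9 M and 9.19 M fragments in PCGF35, 14.8 M in F10 and 10.6 M in F6 (M for mega). The median gene among the 246 X-linked genes with a deposited ratio had 130, 70, 118.5 and 132.5 allelic fragments, respectively. The F6 library stood apart. Its log2 CPM over 15158 genes correlated by 0.951 to 0.954 (Pearson) with the other libraries, which correlated by 0.979 to 0.988 with each other. CPM is a gene's count divided by the library's total in M. Results that rest on F6 are therefore given with and without it where available. The medians of gene lists in total expression are given for both clones together. Before induction, on day 0, the median Dom share was 0.516 in F10 and 0.514 in F6, against 0.509 and 0.511 in PCGF35. Both X chromosomes were therefore represented equally in all of these ES cultures. During differentiation, the summed Cast RNA of the 246 genes in F10 was 4741 CPM on day 0, 4768 on day 1, 3687 on day 3 and 4037 on day 6. In F6 it was 5288, 5085, 5037 and 4972 CPM on those days. In the cultures of the same clones given dTAG-13, F10 had 2646 Cast CPM and a median Dom share of 0.579 on day 6, and F6 had 4977 CPM and 0.5. Cast RNA was thus reduced in F10 but hardly in F6. In bulk RNA, cells without a Cast X cannot be told apart from lower Cast output per cell, and either raises the Dom share of F10. The part of this in the F10 shares below was not tested.

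The engineered genes were examined first. Xist, which must be on for any silencing, had 10925 and 13370 CPM in PCGF35, 7783 CPM in F10 and 4488 CPM in F6. On day 0 it had 47.3 to 75.8 CPM in the same lines. Both clones were therefore induced, but at a lower level than both controls, and F6 was the lowest. The log2 fold change of Xist was -1.01 (SE 0.32), which did not pass the test across all genes (edgeR, adjusted p = 0.620). It was -0.67 with F10 alone and -1.45 with F6 alone. Spen itself had 162 and 137 CPM in PCGF35, 268 in F10 and 657 in F6, a log2 fold change of 1.62 (SE 0.55, edgeR adjusted p = 0.633). The levels did not overlap between groups, but most of the day 6 difference came from F6, with 2.13 for F6 alone and 0.82 for F10 alone. On day 0 Spen was already higher in both clones, at 351 CPM in F10 and 360 in F6 against 137 and 71.4 in PCGF35. A count per gene does not show the point mutation. Pcgf3 levels overlapped, at 92.8 and 73.8 CPM against 94.7 and 77.4 CPM. Pcgf5 had 62.3 and 92.8 CPM in PCGF35, 80.4 in F10 and 30.5 in F6, so that F6 lay below the other libraries. The part of the lower Xist level in the results below was not tested.

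The Dom X stayed far more active in the SPOC mutant clones than in PCGF35. On day 6 the median Dom share over the 246 genes was 0.0649 and 0.0833 in PCGF35, 0.328 in F10 and 0.402 in F6. The groups did not overlap, and F6 was higher than F10. The means were 0.0741 ± 0.0130 (SD, n = 2) and 0.365 ± 0.0525 (SD, n = 2), a difference of 0.291 against a pooled SD of 0.0383. With 2 libraries against 2, p was 0.333 by an exact two-sided permutation test, which cannot go lower in this design. A share above 0.25 was found for 9 and 10 genes in PCGF35, and for 170 genes in F10 and 207 in F6. A share under 0.1 was found for 165 and 135 genes in PCGF35, and for 21 and 6 genes in the clones. Since the libraries are bulk cultures, a Dom copy that is partly repressed in every cell cannot be told apart from one that is silent in only some of the cells.

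**Figure D1:**
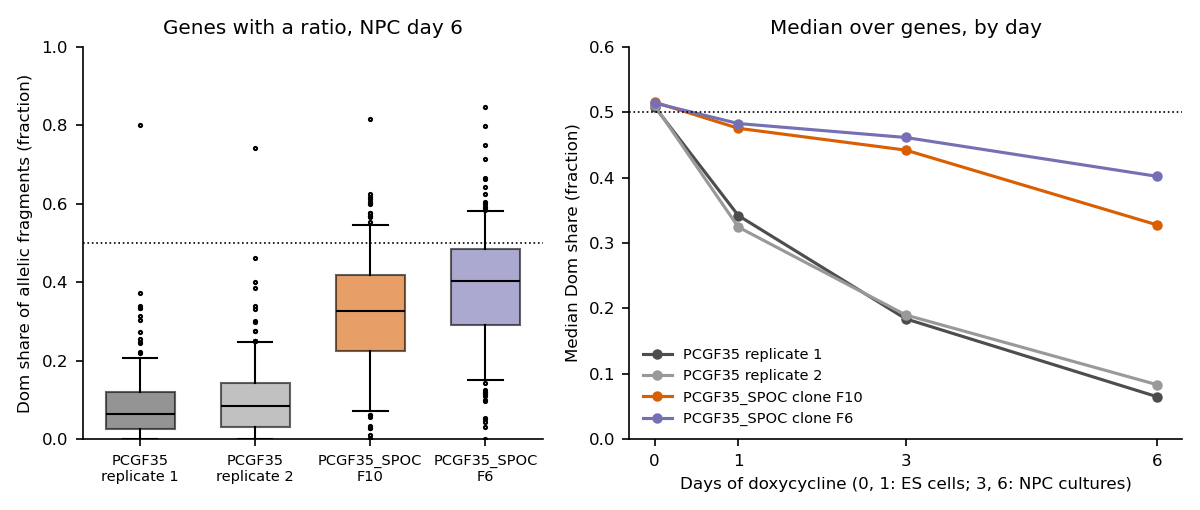
Dom share of allelic fragments. On the left, boxes show the quartiles and median over the 246 genes in each of the 4 day 6 libraries, whiskers the 5th to 95th percentiles and points the genes outside, and the dotted line equal output. On the right, each line joins the medians of 1 clone or replicate number by day of doxycycline. The PCGF35 medians ended at 0.0649 and 0.0833, and those of F10 and F6 at 0.328 and 0.402.

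The difference reached nearly all single genes. An edgeR quasi-likelihood test of Dom against Cast counts found 219 of the 246 genes with a higher Dom share in PCGF35_SPOC (89%), and 0 with a lower share. At an unadjusted p under 0.05 the number with a lower share was also 0, and limma found 0 lower on ratios and on log odds. As the background, 1 of 11683 autosomal genes had a different Dom share by the same test (0.00856%). Both clones lay above both PCGF35 cultures for 228 X-linked genes (92.7%), compared with 16.1% of autosomal genes. The median difference of the share over genes was 0.264, and the median change in the odds of Dom to Cast was 2.70 on the log2 scale. With F10 as the only mutant culture 206 genes passed, and with F6 as the only one 221. Over all genes of a chromosome with at least 50 allelic fragments in the library, the median Dom share was also compared. It differed between the groups by less than 1 percentage point on every autosome, and by 24.3 percentage points on the X. These X-linked genes include those beyond Xist, which give almost no Dom reads in any of the libraries.

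The 27 genes that did not pass were mostly those with few reads. The lowest number of allelic fragments over the 4 libraries had a median of 10 among them and of 83 among the genes that passed, and 24 of the 27 had fewer than 50 fragments in some library. Their difference was above 0 in 26 and below 0 in 1, Nap1l2, which was read from as few as 8 allelic fragments. Of the 146 genes with at least 50 allelic fragments in each library, 143 passed.

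The 10 genes with the largest differences had Dom shares between 0.357 and 0.618 in the clones. Pdzd4, a PDZ domain gene, had a Dom share of 0.0730 and 0.0858 in PCGF35, 0.577 in F10 and 0.552 in F6. Its log2 odds of Dom to Cast rose by 3.92 (SE 0.30, edgeR adjusted p = 4.6e-27). Zdhhc9, a palmitoyltransferase gene, had 0.119 and 0.125 in PCGF35 and 0.606 and 0.590 in the clones. In both genes the day 6 share of the clones was close to their own day 0 share, which averaged 0.568 for Pdzd4 and 0.626 for Zdhhc9. F8, encoding coagulation factor VIII, went from 0 and 0.0377 to 0.444 and 0.522. Naa10, the catalytic subunit of an N-terminal acetyltransferase, went from 0.106 and 0.0702 to 0.576 and 0.496. Renbp, encoding renin binding protein, had 0.0865 and 0.141 in PCGF35 and 0.618 and 0.464 in the clones. In each of these genes the lower clone lay well above the higher control.

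The most precisely measured of the 10 was Tbl1x, itself encoding a subunit of the NCoR corepressor, with at least 1236 allelic fragments in each library. Its Dom share was 0.0363 and 0.0502 in PCGF35, 0.418 in F10 and 0.446 in F6, a log2 odds change of 4.10 (SE 0.26, edgeR adjusted p = 5.6e-34). Chic1 is the gene of this set nearest to Xist, 0.0643 Mb away. Its share was 0.0390 and 0.0508 against 0.411 and 0.471. Mcf2, a guanine nucleotide exchange factor gene, had 0.0653 and 0.0789 against 0.502 and 0.411, and Mtcp1 had 0.0885 and 0.0588 against 0.507 and 0.429. Kis2, a long non-coding RNA gene, had 0.00909 and 0.0392 against 0.493 and 0.357. F10 was above F6 in 7 of these 10 genes, whereas over all 246 genes F6 was above F10 in 179 and below it in 66.

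**Figure D2:**
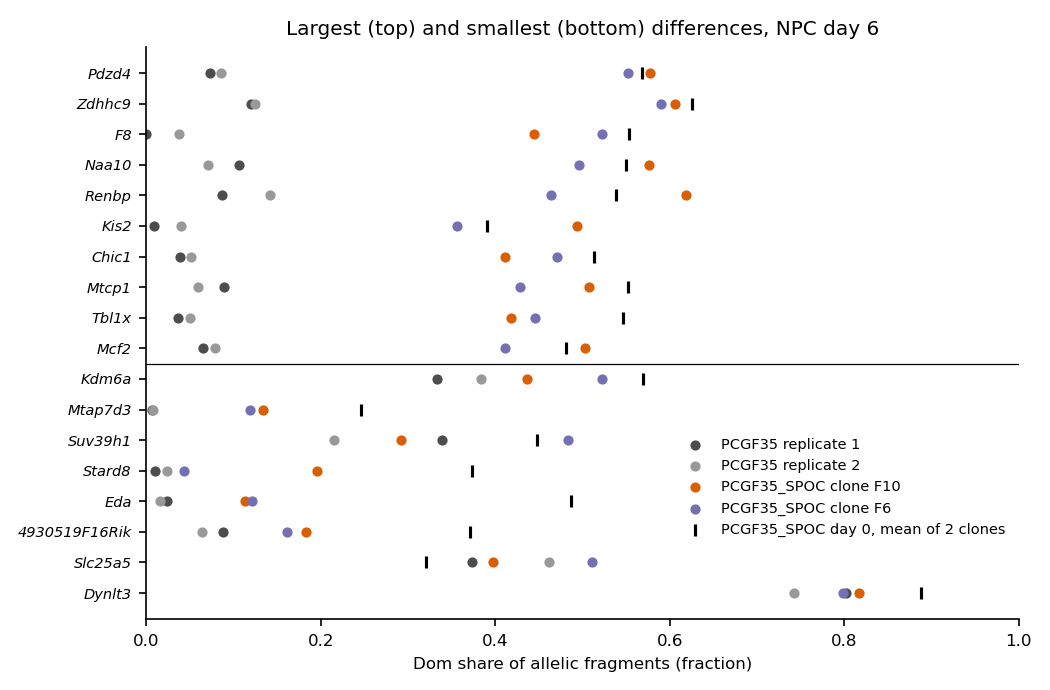
Dom share of allelic fragments (horizontal axis, fraction) in the 4 day 6 libraries for the 10 genes with the largest and 8 of the 10 with the smallest difference among the 146 genes with at least 50 allelic fragments in each library. Dots are libraries and black ticks the mean day 0 share of the 2 clones. In the upper block, Pdzd4 at 0.577 and 0.552 lay next to its tick, and in the lower block Dynlt3 stayed between 0.742 and 0.817 in all 4 libraries.

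The 10 genes with the smallest differences fell into 2 kinds by their levels. In some, the Dom copy had stayed active in PCGF35 already. Dynlt3, a dynein light chain gene, had a share of 0.802 and 0.742 in PCGF35 and 0.817 and 0.798 in the clones (edgeR adjusted p = 0.573). Slc25a5, the mitochondrial ADP/ATP carrier, had 0.373 and 0.462 against 0.397 and 0.511 (edgeR adjusted p = 0.492). Suv39h1, a histone H3 lysine methyltransferase, had 0.338 and 0.215 against 0.292 and 0.483 (edgeR adjusted p = 0.200). The groups overlapped in all of these. Kdm6a, a histone demethylase gene that escapes inactivation, had 0.333 and 0.384 against 0.436 and 0.522 and passed (edgeR adjusted p = 0.0025).

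In the other kind, the Dom copy was low in the mutant clones as well. Eda, encoding ectodysplasin, had 0.0237 and 0.0156 in PCGF35, 0.113 in F10 and 0.121 in F6. Mtap7d3 had 0.00687 and 0.00781 against 0.134 and 0.118. Both genes passed the test, but more than 80% of their allelic RNA in both clones came from the Cast X. Stard8 differed between the clones, with 0.0104 and 0.0241 in PCGF35, 0.196 in F10 and 0.0427 in F6. 4930519F16Rik had 0.0876 and 0.0638 against 0.183 and 0.161.

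Genes were also followed by role. X-linked regulators of chromatin and transcription had 17 members with a ratio, of which 15 had a higher Dom share and 0 a lower one, with a median difference of 0.300. Over all 246 genes, 89% had a higher share and the median difference was 0.264, so this list, like each list below, lay near the background of the chromosome. Hcfc1, a host cell factor that joins several chromatin complexes, had 0.0901 and 0.0849 in PCGF35 and 0.442 and 0.426 in the clones. Ogt, the O-GlcNAc transferase gene, had 0.149 and 0.142 against 0.504 and 0.474. The cohesin subunit gene Stag2 had 0.0372 and 0.0750 against 0.404 and 0.437. The deacetylase genes followed the same direction, Hdac8 with 0.0572 and 0.0420 against 0.306 and 0.341, and Hdac6 with 0.0774 and 0.116 against 0.348 and 0.401. Jade3 (0.105 and 0.102 against 0.331 and 0.521) and Phf6 (0.0581 and 0.0546 against 0.275 and 0.282) passed as well. The 2 members that did not pass were Suv39h1 and Smarca1, a chromatin remodeller gene with 0 and 0.0435 against 0.0952 and 0.111.

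All 8 X-linked genes of the pluripotency and MAPK list with a ratio had a higher share, beside 89% of all genes, with a median difference of 0.238 beside 0.264. Klhl13, a ubiquitin ligase adaptor gene whose dosage affects ES cell differentiation, had 0.0425 and 0.0474 in PCGF35 and 0.193 and 0.274 in the clones. Zfp185 had 0.0164 and 0.0366 against 0.216 and 0.309, Araf, a RAF kinase gene, 0.140 and 0.184 against 0.307 and 0.496, and the ERK target factor gene Elk1 0.0959 and 0.132 against 0.223 and 0.385. The kinase gene Pim2 had 0.0592 and 0.0833 against 0.259 and 0.385. In each of them, the F6 share was above that of F10. Nr0b1, a nuclear receptor gene of naive ES cells, had 0 Dom fragments of 44 in PCGF35, which allows a share of up to 0.0682, and 0.258 and 0.292 in the clones. Dusp9, an ERK phosphatase gene (0.0625 and 0.0476 against 0.28 and 0.25), passed from as few as 8 allelic fragments in a library.

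Of 6 metabolic housekeeping genes, 5 had a higher share, beside 89% of all genes, with a median difference of 0.265 beside 0.264. G6pdx, encoding glucose-6-phosphate dehydrogenase, had 0.0306 and 0.0351 against 0.277 and 0.433. Hprt, encoding a purine salvage enzyme, had 0.106 and 0.0739 against 0.350 and 0.447. Idh3g, an isocitrate dehydrogenase subunit gene, had 0.164 and 0.210 against 0.461 and 0.475. In these 3 genes F6 was above F10, and both were above the controls. Uba1, the ubiquitin activating enzyme gene, had 0.159 and 0.243 against 0.294 and 0.522, and Ndufb11, a complex I subunit gene, 0.156 and 0.0789 against 0.192 and 0.542. In both of these F10 lay near the controls and F6 near equal output. Slc25a5 was the member that did not pass.

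All 8 neural genes with a ratio had a higher share, again beside 89% and with a median difference of 0.232 beside 0.264. L1cam, a neural adhesion molecule gene, had 0.0286 and 0 in PCGF35 and 0.545 and 0.562 in the clones, from as few as 16 fragments. Fgf13, which regulates sodium channels, had 0.0160 and 0.0275 against 0.248 and 0.245, and Fmr1, encoding an RNA-binding protein of synapses, 0.0909 and 0.150 against 0.340 and 0.379. The glutamate receptor gene Gria3 had 0.0221 and 0.0196 against 0.202 and 0.333. The vesicle protein gene Syn1 had 0.136 in each control culture and 0.340 and 0.484 in the clones. Gabra3, a GABA receptor subunit gene, had 0 Dom fragments of 119 in PCGF35, which allows up to 0.0252, and 0.182 and 0.100 in the clones. Over all genes, 15 had 0 Dom fragments in both PCGF35 cultures, and 0 genes had none in both clones.

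The 4 genes known to escape inactivation in mouse cells all had a higher share, beside 89% of all genes, with a median difference of 0.214 beside 0.264. The translation factor gene Eif2s3x had 0.247 and 0.248 in PCGF35 and 0.395 and 0.447 in the clones, and the RNA helicase gene Ddx3x 0.158 and 0.229 against 0.404 and 0.491. Together with Kdm6a and 1810030O07Rik (0.165 and 0.302 against 0.527 and 0.513), they started from a higher level in PCGF35 than the median gene.

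Set against its own day 0, the median gene kept 13.1% and 16.3% of its Dom share on day 6 in PCGF35, 63.0% in F10 and 79.8% in F6. More than 75% was kept by 2 and 3 genes in PCGF35, by 81 genes in F10 and by 140 in F6, of which 66 were in both clones. Hcfc1 was one of these, with 96.5% in F10 and 90.4% in F6, against 17.9% and 18.3% in PCGF35. Less than 25% was kept by 23 genes in F10 and 11 in F6, against 186 and 171 in PCGF35. The 5 genes under 25% in both clones were Eda, Smarca1, Heph, Prrg3 and Tmem28. Eda kept 23.5% and 24.5%, and was read from at least 836 allelic fragments, while the other 4 had as few as 10 to 32 in a library. When the day 0 levels of both lines were taken into account in the edgeR test, 214 of the 246 genes (87%) differed, with a median contrast of 0.259. Without F6 the median contrast was 0.219.

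The share fell in the clones too, and slowly. From day 1 to day 3 and day 6 the median was 0.476, 0.442 and 0.328 in F10, and 0.483, 0.462 and 0.402 in F6. PCGF35 had reached 0.342 and 0.324 by day 1. The clone medians on day 6 were thus close to those of PCGF35 after 1 day, with F10 between and F6 above the PCGF35 values. Tbl1x averaged 0.525 on day 1 and 0.535 on day 3 in the clones, before its 0.418 and 0.446 on day 6, whereas in PCGF35 it averaged 0.221 and 0.128 on those days.

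Genes that lost the Dom share quickly in PCGF35 also had the lower share in the mutant. The 246 genes were divided into 3 groups of 82 by the percent of the day 0 share kept in PCGF35 on day 1, with limits at 58.4% and 74.1%. From the fast to the slow group, the median day 6 share was 0.244, 0.324 and 0.392 in F10 and 0.288, 0.405 and 0.475 in F6. In PCGF35 it was 0.0208, 0.0662 and 0.133 in replicate 1 and 0.0307, 0.0871 and 0.148 in replicate 2. The order was therefore the same in all 4 libraries. Over the 146 genes with at least 50 allelic fragments, the PCGF35 share on day 1 was divided by that on day 0. This fraction correlated by 0.528 (Spearman, across genes) with the day 6 share in the clones, and by 0.0064 with the difference between groups. These points share the chromosome, the libraries and the allelic depth of each gene.

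Shares were also followed along the X chromosome. In bins of 20 Mb by distance from Xist, the nearest 56 genes had a median share of 0.0320 and 0.0532 in PCGF35, 0.260 in F10 and 0.360 in F6. The 69 genes at 80 to 100 Mb had 0.105 and 0.122 in PCGF35, 0.341 in F10 and 0.447 in F6. Between these bins, the medians of F10 were 0.384, 0.308 and 0.397 and those of F6 0.394, 0.353 and 0.458, so the clones did not rise steadily with distance and were highest at 60 to 80 Mb. Across the 146 genes, the Spearman correlation of the distance was 0.357 with the mean share in PCGF35, 0.130 with that in the clones and -0.134 with the difference. The day 0 level in CPM correlated with the difference by 0.204. The number of CpG in the 300-base promoter window of RefSeq, known for 123 of these genes, correlated with it by -0.0012. F10 and F6 ranked the genes alike, with a Spearman correlation of 0.713, compared with 0.878 between the PCGF35 cultures.

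**Figure D3:**
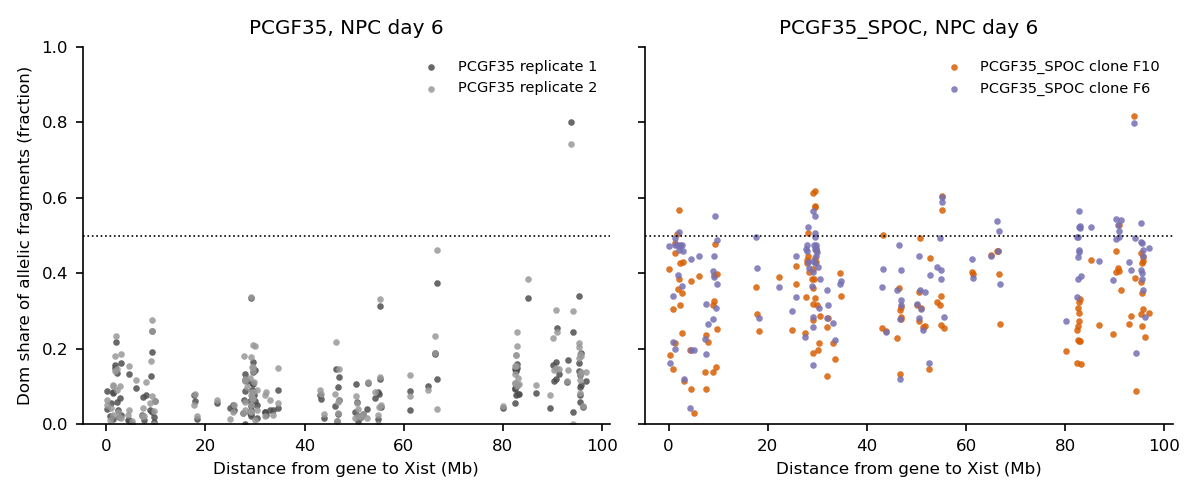
Dom share of allelic fragments (vertical axis, fraction) against distance from Xist (horizontal axis, Mb) for the 146 genes with at least 50 allelic fragments in each library. Each point is a gene in 1 library, PCGF35 on the left and PCGF35_SPOC on the right, and the dotted line marks equal output. Most PCGF35 points lie under 0.25 along the whole chromosome arm, and most clone points lie above 0.25. PCGF35 points above it include Dynlt3 at 0.802 and 0.742, Slc25a5 and Kdm6a.

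The difference lay mostly in RNA of the Dom copy. Counts of Dom fragments, scaled by the library's total counts, were higher in PCGF35_SPOC for 209 of the 246 genes (85%) and lower for 0 in edgeR's test, with a median log2 fold change of 2.60. Without F6 this median was 2.14. Counts of Cast fragments passed for 0 genes in either direction (0%), with 1 higher and 21 lower at an unadjusted p under 0.05, and a median log2 fold change of -0.19, which was -0.41 without F6 and -0.056 without F10. Tbl1x had 5.86 and 6.75 Dom CPM in PCGF35 and 68.3 and 79.6 in the clones. Its Cast RNA was lower in the clones, at 95 and 98.9 CPM beside 155 and 128 in PCGF35, so both copies moved its share. Its total was 581 and 501 CPM in PCGF35 and 603 and 645 CPM in the clones, a difference that did not pass.

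Summed over the 246 genes, Dom RNA came to 505 and 613 CPM in PCGF35, 2201 in F10 and 3653 in F6. This was 9.82% and 10.9% of the day 0 level of the same replicate number in PCGF35, 43.6% in F10 and 64.2% in F6. Cast RNA was at 109% and 91.2% of day 0 in PCGF35, 85.1% in F10 and 94.0% in F6. The Dom values did not overlap between groups, and as a percent of day 0 the Cast values did. In CPM, the Cast sums were 5361 and 4986 in PCGF35, 4037 in F10 and 4972 in F6, so that F10 lay below both controls and F6 just below the lower one. Beyond Xist the X of this line gives almost no Dom reads, so only the total could be followed there. That total stood at 52.4% and 54.1% of day 0 in PCGF35, 56.7% in F10 and 77.5% in F6. F10 thus lay within 5 percentage points of both controls in that region, and F6 lay above.

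**Figure D4:**
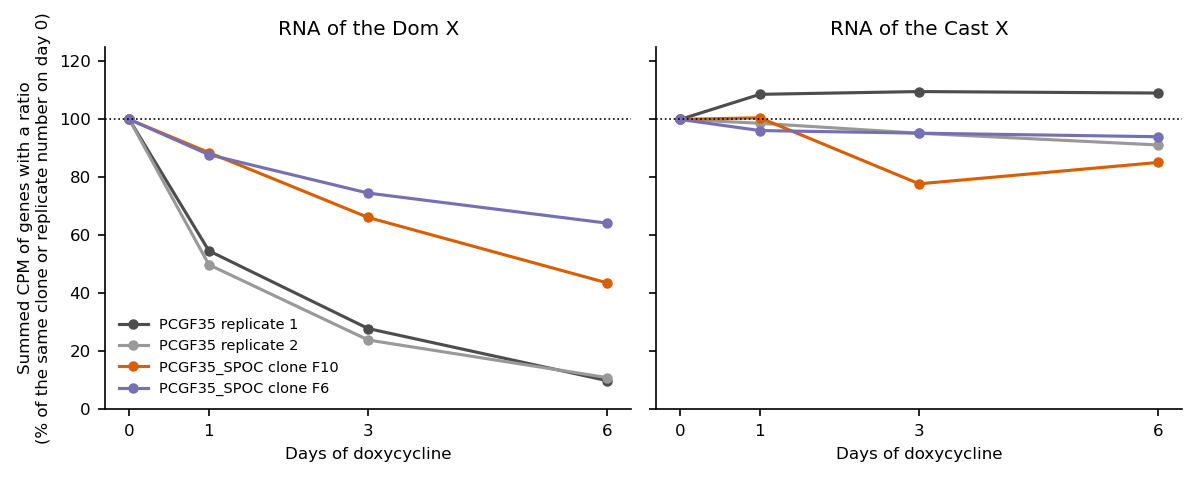
Summed CPM of the 246 genes from the Dom X (left) and the Cast X (right) as a percent of day 0 (vertical axis) against days of doxycycline (horizontal axis). Each line is 1 clone or replicate number. Dom RNA ended at 9.82% and 10.9% in PCGF35, 43.6% in F10 and 64.2% in F6, and Cast RNA between 85.1% and 109% in all 4.

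Total expression of these genes, to which both copies add, shifted less than their Dom RNA. The median log2 fold change of the 246 genes was 0.35, beside 0.01 for autosomal genes and 0.06 for X-linked genes beyond Xist. It was above 0 for 189 genes and below 0 for 57. Relative to autosomal genes it was 0.34, which rested on F6: with F10 as the only mutant culture it was 0.018, and with F6 as the only one 0.56. For genes beyond Xist the median also depended on the clone, at -0.11 with F10 alone and 0.24 with F6 alone. Klhl13 was among the clearer single genes, with 199 and 215 CPM in PCGF35, 438 in F10 and 525 in F6. Elk1 had 19.2 and 19.7 CPM against 31.2 and 29.97, Araf 87.4 and 80.3 against 124 and 110, and Uba1 87.7 and 78.3 against 117 and 106. In these 4 genes both clones were above both controls, although none passed over all genes (edgeR adjusted p = 0.620 for each). The chromatin genes Jade3 (84.5 and 108 CPM against 160 and 204), Rbbp7 and Zmym3 had log2 fold changes of 0.90, 0.69 and 0.84 that did not pass. Idh3g and Gla had 0.72 and 0.73. Genes beyond Xist, such as Gla and Mid1, are not among the 246 and have no usable Dom share. Not all X-linked genes were higher in total. Gabra3 had 10.7 and 15.8 CPM in PCGF35 and 4.53 and 3.2 in the clones, and Mid1, an escapee, had 741 and 647 CPM against 499 and 304.

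Across the genome, edgeR found 0 of 15158 genes different in total expression (0%), with 729 higher and 318 lower at an unadjusted p under 0.05 (6.91%). DESeq2 found 17 of 14864 (0.114%), of which 15 were higher and 2 lower. The 15 included Usp11, Zfp182 and Cfp, X-linked genes that also had a higher Dom share. Usp11, a deubiquitinase gene, had 67.1 and 54.2 CPM in PCGF35 and 153 and 113 CPM in the clones. The autosomal mitochondrial carrier gene Slc25a36 had 258 and 244 CPM against 440 and 528. The 2 lower genes were Tcf7l1, a repressor of naive pluripotency genes, with 542 and 503 CPM against 275 and 338, and Lgals9, a galectin gene, with 5.17 and 7.95 against 1.96 and 1.13. By CPM, groups did not overlap for 20.2% of genes in the higher and 13.9% in the lower direction, so that a gene with separate groups is common here.

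Genes of cell state were compared because X dosage and differentiation are linked in female ES cells. No member of the lists below passed in edgeR or DESeq2, so their levels are given as values. Over the 15 naive pluripotency genes the median log2 fold change was 1.10, beside 0.01 over all genes, and 2 had an unadjusted p under 0.05. Their summed level was 586 and 513 CPM in PCGF35, 697 in F10 and 1497 in F6, so that F6 stood well above the other libraries. Zfp42 had 81.4 and 67.3 CPM in PCGF35, 139 in F10 and 329 in F6. Nanog had 14.3 and 13.4 against 20.9 and 46.6, and Tfcp2l1 46.3 and 40.1 against 65.8 and 122. The log2 fold change of Nanog was 0.57 with F10 alone and 1.75 with F6 alone. It was 0.11 and 1.48 for Esrrb, and 0.01 and 1.78 for Klf2. The median of 1.10 joins both clones, and F6 had the larger change in these genes. F10 was above both controls for 10 of the 15 genes and F6 for 15. No share over all genes is given for 1 clone alone, so these numbers have no background. On day 0 the sum was 2402 to 3065 CPM in PCGF35 and 1942 to 2017 CPM in the clones, so F6 had kept the larger part of its ES level.

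For the 12 core and formative pluripotency genes tested, the median log2 fold change was -0.40, with 3 at an unadjusted p under 0.05. Lef1, a Wnt pathway factor gene, had 145 and 150 CPM in PCGF35 and 39.4 and 59.0 in the clones. The DNA methyltransferase gene Dnmt3b had 405 and 554 against 193 and 263, and Dnmt3a 120 and 118 against 87.8 and 102. Both clones were below both controls for each of them. Neural progenitor genes had a median of -0.21 over 14 tested, with 3 at an unadjusted p under 0.05. The adhesion molecule gene Ncam1 (232 and 193 CPM against 378 and 532) and Zeb1 (129 and 110 against 176 and 247) were higher in value, and the neural factor gene Pax6 was low throughout, with 0.378 and 1.42 against 2.57 and 3.2. These are the 3 of smallest p, and other members were lower. Nes and Cdh2 had log2 fold changes of -0.67 and -0.20, but of 0.20 and 0.45 with F10 alone. Sox1 and Sox2 were counted at 0 in all 58 libraries, and each overlaps another gene on the same strand, so these defining genes give no information here.

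Genes of the pathways around SPEN and PCGF3/5 had medians nearer to 0, and at most 2 members of each list had an unadjusted p under 0.05. The SPEN corepressor list had a median of 0.01 over 8 genes, with Tbl1xr1 at 577 and 639 CPM against 500 and 549. PRC1 and PRC2 genes had a median of -0.03 over 17, with Mtf2 at 360 and 357 against 466 and 641, and Yaf2 at 67.9 and 68.1 against 61.6 and 41.0. Notch genes, whose targets SPEN can repress through RBPJ, had a median of 0.15 over 13, with Nrarp at 1.45 and 0.762 against 2.23 and 1.70 and Dll3 at 4.73 and 5.01 against 2.91 and 1.41. ERK output genes had a median of -0.19 over 14, with Dusp4 at 29.5 and 32.3 against 19.1 and 21.0.

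Markers of other cells differed more between F6 and the rest than between the groups. Nes, Vim and 7 other neural precursor markers summed to 403 and 174 CPM in PCGF35, 353 in F10 and 59.1 in F6. F6 was below both controls for 5 of the 9, again without a share over all genes beside it. Sox1 and Pou3f2 were at 0 in all 4 libraries. Nes alone had 276 and 115 CPM against 227 and 21.0. Mesoderm and endoderm markers (10 genes) summed to 85.5 and 151 CPM in PCGF35, 66.0 in F10 and 13.7 in F6, with Mesp1 at 0. Feeder fibroblast markers (9 genes) summed to 106 and 68.0, 131 and 32.4 CPM. Of these, Col1a1 had 14.0 and 5.66 CPM in PCGF35, 16.2 in F10 and 0.565 in F6. Trophoblast markers (5 genes) summed to 13.7 and 10.0, 16 and 22 CPM, with Cdx2 at 0, and neuron markers (7 genes) to 279 and 254, 320 and 240 CPM. The neural precursor sum of F10 lay between those of the PCGF35 cultures. Its naive pluripotency sum was 697 CPM, beside 586 and 513 CPM in PCGF35. The part of these differences in the higher Dom share of F6 over F10, or of the clones over PCGF35, was not tested.

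**Figure D5:**
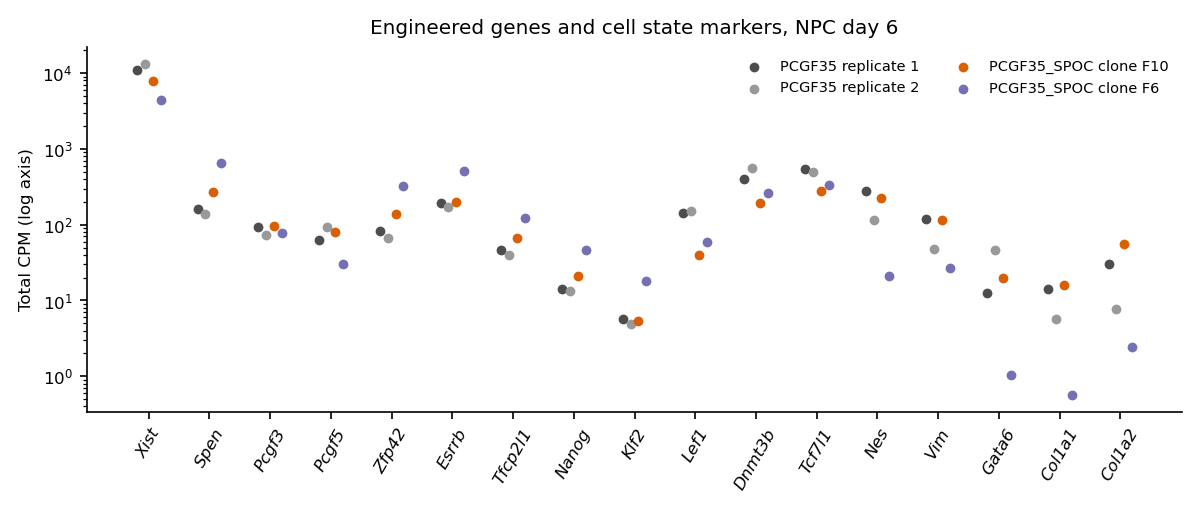
Total CPM (vertical axis, log scale) of the engineered genes and of markers of cell state in the 4 day 6 libraries, 1 dot per library. Xist ran from 4488 CPM in F6 to 13370 CPM in a PCGF35 culture, and Nes, Gata6, Col1a1 and Col1a2 were lowest in F6.

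The same mutation was also made in the parental line without the degron tag, and its NPC day 6 libraries allow the size of the effect to be compared with no shared library. There, the median difference between mutant and control over the 246 genes was 0.220, compared with 0.264 here. The difference was larger here for 177 genes and smaller for 69, with a median contrast of 0.0423. Across the 146 genes with at least 50 fragments, both differences correlated by 0.766 (Pearson) and 0.752 (Spearman), as a description of genes that share a chromosome. Pdzd4 differed by 0.439 in the parental line and 0.485 here, Tbl1x by 0.353 and 0.389, and Kdm6a by 0.132 and 0.121. In a test of the difference itself, 1 gene of 246 passed (0.407%), and 36 had an unadjusted p under 0.05. That gene was Eda, which had 0.0385 and 0.0208 in the parental SPOC mutant and 0.0179 and 0.0158 in its control, beside 0.113 and 0.121 against 0.0237 and 0.0156 here. The log2 odds contrast was 1.84 (SE 0.40, edgeR adjusted p = 0.0047). This call was lost when a single replicate was left out in some cases, with 0 to 5 genes called.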

How the data were processed

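According to the labels, the submitters' processing notes and the paper's methods, the authors discarded rRNA reads with Bowtie2 2.3.2, aligned pairs to N-masked mm10 with STAR 2.4.2a, split them by allele and counted fragments per gene and strand with featureCounts 1.5.2. The deposited counts are raw: total, Cast and Dom fragments per gene. The deposited fraction, the Dom share, covers 246 X-linked genes that passed the authors' filters on allelic depth and day 0 share. Recomputing it from the counts left differences under 1e-15 (largest 5.6e-16).

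Groups came from titles. Nothing in the labels says more than that a library is a culture or a clone, so p-values cover the spread between these libraries only. Allelic and total counts were tested with edgeR 4.0.16 (quasi-likelihood, robust, Benjamini-Hochberg at 0.05) in R 4.3.3, in fits of the 16 NPC libraries of both degron lines, with 1 mean per group. Contrasts with day 0 and with the parental line used all 58 libraries. Allelic counts were fitted as pairs of columns with 1 term per library. Total counts were filtered with filterByExpr and scaled by TMM, and autosomal genes needed 10 allelic fragments in 80% of the libraries. Limma 3.58.1 and DESeq2 1.42.0 served as alternatives. Of the fits, only the edgeR tests of total expression and of the Dom share between the groups were tried on simulated counts. A count of 0 was read as allowing 3 counts. Shares and these limits carry counting error only, without molecular identifiers.

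The members, gene lists and rules were chosen with earlier results of these data known. Named are the engineered genes, the 10 largest and 10 smallest share differences among genes with 50 allelic fragments in each library, list members that passed (at most 8, otherwise the 3 of smallest p as values), and any expression gene that passed with 5 CPM. Some genes that met this rule are not reported here. None met the last condition, so genes called by DESeq2 were named after their values were seen, as were Hcfc1, Nes, Col1a1, Gata6, Col1a2, Nap1l2 and the genes under 25% of day 0. Clones pair the PCGF35_SPOC libraries of day 0 and day 6, since a clone is 1 cell line, and their deviations correlated by 0.322. PCGF35 replicate numbers of both days correlated by 0.0121. Replicate libraries differed by more than counting error (chi-square per degree of freedom 78.4 for the clones and 33.2 for PCGF35), so none was deposited more than once.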

Additional observations from a re-analysis of the deposited data

Results flagged for a closer look

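Eda was the 1 gene whose response to the SPOC mutation differed between the degron line and the parental line by a test of the difference itself, with a log2 odds contrast of 1.84 (edgeR adjusted p = 0.0047). The call is not firm: limma called 5 genes on ratios and 16 on log odds, and edgeR 0 without any of 3 single replicates. Its Dom share in the clones went from 0.348 and 0.398 on day 1 to 0.237 and 0.194 on day 3 and 0.113 and 0.121 on day 6, F10 first. The level of Eda was 154 CPM in F10 and 294 CPM in F6 on day 6, beside 163 and 216 CPM in PCGF35.

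A signal was also seen in X-linked genes that lie before Xist but have no deposited ratio. Of 8 such genes with enough allelic fragments, 6 had a higher Dom share in the clones by edgeR, with a median share of 0.514 in the clones and 0.0511 in PCGF35. They were Rhox5, Usp26, Xlr3a, Xlr3b, Atp2b3 and Mageb16, and C330007P06Rik and Il1rapl1 did not pass. The same fit called 210 of all 225 X-linked genes before Xist with at least 10 allelic fragments. Passing was thus common along this part of the X. Rhox5, a homeobox gene, had 0 Dom fragments of 14 and of 11 in PCGF35, 38 of 60 in F10 and 61 of 105 in F6. Usp26, a deubiquitinase gene, had 1 of 96 and 3 of 61 against 91 of 225 and 167 of 474. The Xlr3 genes are near-identical copies and Mageb16 belongs to a family, so the counts of these genes are uncertain.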

How the results depend on the processing

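Of 133 alternatives computed for 18 results, 119 were counted as unmoved, 14 moved further and 0 reversed. Unmoved meant within the spread for medians, and within 1.5 times of the value given for numbers of genes. For Xist and Spen it meant the same sign and the same call, whatever the size. Without F6 the log2 fold change was 0.82 instead of 1.62 for Spen and -0.67 instead of -1.01 for Xist, and both were counted as unmoved. The number of genes with a higher Dom share was 143 where at least 50 fragments were required, of 146 genes left. Over the same 246 genes it ran from 171, in a joint fit with autosomal genes, to 223, with 188 to 221 when a replicate was left out. The contrast with day 0 gave 206 genes with the replicate block and 206 with the same libraries and no block. No other result had a paired fit, since clones and PCGF35 cultures share no number in the labels. By the numbers assigned in order, F10 and PCGF35 replicate 1 deviated together on day 6 with a correlation of 0.187. Its median ran from 0.219 (without F6) to 0.285 when a replicate was left out. The contrast with the parental line gave 5 genes by limma on ratios and 16 on log odds, and 0 to 5 when a replicate was left out: 0 without WT replicate 2, PCGF35 replicate 2 or SPOC replicate 2. DESeq2 called 15 higher and 2 lower genes in total expression where edgeR called 0. The X-linked shift in total expression ran from 0.018 (without F6) to 0.56 (without F10), the median of Dom RNA from 2.14 (without F6) to 2.83 and that of Cast RNA from -0.41 (without F6) to -0.056 when a replicate was left out. The cause of these movements was not tested. Xist and Spen had adjusted p from 0.267 to 0.999 and from 0.238 to 0.999 over the alternatives. Depth limited single genes, since 100 of the 246 genes had fewer than 50 allelic fragments in some library, and 2 libraries a group limited every test.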

Other observations

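The 1 autosomal gene with a different Dom share was Zfp42 on chromosome 8, a naive pluripotency gene. Its share was 0.549 and 0.541 in PCGF35, 0.422 in F10 and 0.415 in F6, a change of -0.74 in log2 odds (edgeR adjusted p = 0.00035). On day 0 it was 0.323 and 0.312 in PCGF35 and 0.352 and 0.305 in the clones, when Zfp42 had 540 to 1019 CPM, and on day 3 it was 0.405 and 0.400 in PCGF35 and 0.355 and 0.350 in the clones. The share thus moved to the Dom allele in all 4 cultures as the level fell, and less so in the clones. In the parental line the order was the opposite on day 6, with 0.435 and 0.418 in the SPOC mutant and 0.365 and 0.367 in its control. The median gene on chromosome 8 had a Dom share of 34.7% to 35.1% in the 4 libraries.

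A few genes took shares of the counts that varied between the libraries without following the groups. Filip1l held 0.0619% and 1.38% of counts in PCGF35, 0.00727% in F10 and 0.833% in F6. Cmss1 held 0.140% and 0.442% against 0.0939% and 0.955%, and Jarid2 0.158% and 0.627% against 0.144% and 0.511%. PCGF35 replicate 2 and F6 were thus alike for these genes.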
